A study of Mus musculus with 10 samples.

Results

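The Igkv10 family is a group of 3 closely related variable (V) segments of the mouse immunoglobulin kappa light chain locus (Igk): Igkv10-94, Igkv10-95 and Igkv10-96 (IGKV10-94, IGKV10-95 and IGKV10-96 in the table). Its rearranged transcripts were taken from a deposited repertoire table by the V call of the first read, with the allele name removed. The 3 segments held 2777 of 161780 counts in all, as 450 of 23998 distinct clonotypes, a clonotype being 1 combination of V, J and CDR3 nucleotide sequence. Igkv10-94 had 1752 counts, Igkv10-96 had 507 in the WT samples and 517 in the rsCBE samples, and Igkv10-95 had 1 count. The table lists 114 V segments, all on the same Igk locus.

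Igk transcripts were sequenced from small pre-B cells sorted from mouse bone marrow, in 10 samples. The 5 WT samples came from C57Bl6 mice, and the 5 samples labelled rsCBE came from mice that the series writes with a delta before the same name; all were 6 to 12 weeks old, and the labels do not spell out rsCBE. Replicates 1 and 2 of each genotype were deposited as 1 library, and replicates 3, 4 and 5 as 2 parts, a and b, which were added; the labels do not say what the parts are. Totals ranged from 3109 counts (WT replicate 4) to 24083 (rsCBE replicate 1). The table holds Igk transcripts only, so the labelled cell type could not be checked against other markers, and nothing says that the samples of a genotype came from separate animals, so p-values measure the spread between these samples, which may be technical.

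A kappa chain gene is assembled in pre-B cells when the RAG recombinase joins 1 V segment to 1 of the J segments. J1 lies nearest to the V segments, and a cell can replace a first joint by joining a V segment further out to a J segment further in, so J4 and J5 can take part in later joints; mouse J3 is not functional. V segments that point the same way as the J segments join by deleting the DNA between them, and V segments that point the other way join by inverting it. The bases at the joint encode the end of CDR3, a loop that touches antigen, and only an in-frame joint can encode a light chain. The Vk10 group has long been studied in antibody responses to haptens, and its member Vk10c, the synonym RefSeq gives for Igkv10-95, has been described as underused.

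On chromosome 6 of GRCm38 (the build called mm10), GENCODE vM21 places Igkv10-96 at chr6:68631963-68632442 on the minus strand, Igkv10-95 at chr6:68680379-68680848 on the plus strand and Igkv10-94 at chr6:68704508-68704978 on the minus strand. Each has 2 exons and is annotated as a functional class of V gene. The J segments lie on the plus strand, so Igkv10-94 and Igkv10-96 are oriented for joining by inversion and Igkv10-95 for joining by deletion. The family spans 73.0 kb, with gaps of 47.9 kb between Igkv10-96 and Igkv10-95 and of 23.7 kb between Igkv10-95 and Igkv10-94, and it lies 2018 to 2090 kb from J1. The next V segment towards the J segments is Igkv19-93, 31.3 kb from Igkv10-94.

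The germline sequences of exon 2, which encodes the V region, are shown because the counts of 1 member differ so far from the others although the sequences are nearly the same. They were read from GENCODE vM21 transcripts (GRCm38), coding strand, 298 bases each, at chr6:68704508-68704805 (Igkv10-94, minus strand), chr6:68680551-68680848 (Igkv10-95, plus strand) and chr6:68631963-68632260 (Igkv10-96, minus strand). The capitals mark the 22 positions at which the members are not all alike.
Igkv10-94: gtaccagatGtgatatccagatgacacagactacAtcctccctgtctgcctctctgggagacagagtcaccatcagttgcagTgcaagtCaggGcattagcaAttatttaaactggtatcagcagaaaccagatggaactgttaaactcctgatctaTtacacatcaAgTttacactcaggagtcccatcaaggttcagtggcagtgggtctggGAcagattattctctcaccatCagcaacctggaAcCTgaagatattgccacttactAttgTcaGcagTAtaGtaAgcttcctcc
Igkv10-95: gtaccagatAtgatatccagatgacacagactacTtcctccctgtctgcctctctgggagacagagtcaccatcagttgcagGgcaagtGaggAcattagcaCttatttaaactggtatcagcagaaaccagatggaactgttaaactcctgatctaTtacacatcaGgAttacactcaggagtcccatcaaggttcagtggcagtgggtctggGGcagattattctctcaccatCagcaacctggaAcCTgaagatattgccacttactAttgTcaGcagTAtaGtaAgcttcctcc
Igkv10-96: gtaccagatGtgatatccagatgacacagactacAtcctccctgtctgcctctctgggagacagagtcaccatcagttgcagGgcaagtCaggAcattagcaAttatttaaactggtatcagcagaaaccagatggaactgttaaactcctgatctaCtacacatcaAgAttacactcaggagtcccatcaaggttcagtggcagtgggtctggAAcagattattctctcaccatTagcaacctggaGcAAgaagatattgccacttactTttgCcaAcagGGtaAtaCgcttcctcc

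Over the 347 coding bases of both exons, Igkv10-94 and Igkv10-95 differ at 10 bases (97.1% identity), Igkv10-94 and Igkv10-96 at 16 (95.4%), and Igkv10-95 and Igkv10-96 at 20 (94.2%). The base that only 1 member has was found at 3 positions for Igkv10-94, 7 for Igkv10-95 and 13 for Igkv10-96. The last 82 bases of Igkv10-94 and Igkv10-95 are identical, so these members can be told apart only by bases further 5′ in the V segment. Reads were 151 bases long, and which stretch of V they cover is not given in the sources used here. The split of counts between Igkv10-94 and Igkv10-95 is uncertain to that extent. Igkv10-96 differs from both within the CDR3 itself.

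The part of the germline V segment that enters CDR3 runs from the codon after the conserved cysteine to the V end, and it is shown with the capitals at the 5 bases that set Igkv10-96 apart.
Igkv10-94: caGcagTAtaGtaAgcttcctcc
Igkv10-95: caGcagTAtaGtaAgcttcctcc
Igkv10-96: caAcagGGtaAtaCgcttcctcc
The last 9 bases, where recombination trims and joins the V end, are the same in all 3 members. The J ends they meet, up to the conserved phenylalanine codon, are gtggacg in J1, tgtacacg in J2, attcacg in J4 and gctcacg in J5.

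Igkv10-94 and Igkv10-96 were moderately used segments. Igkv10-94 held 1.02% ± 0.423 of the counts (SD, n = 10 samples), the 36th highest mean share of 114 V segments, and Igkv10-96 held 0.667% ± 0.366, the 48th. Igkv10-95 came last of the 114, and it was the only V segment with 1 count in all; no other had 5 or fewer.

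The single Igkv10-95 count was in rsCBE replicate 1, joined to J1. Its CDR3, cagcagtatagacg, is 14 bases long and out of frame, and no line listed the same CDR3 under another V segment. In the other 9 samples a count of 0 allowed a share of at most 0.0129% (rsCBE replicate 2) to 0.0965% (WT replicate 4), taking 3 counts of the total as the limit. Over all samples 1 count was 0.000618% of the repertoire (exact binomial 95% interval 1.56e-05 to 0.00344%). Igkv10-94 had 1752 counts for each count of Igkv10-95 (exact 95% interval 314 to 69239). The intervals cover counting error only. A single count is too few to compare Igkv10-95 between the genotypes.

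Igkv10-94 was lower in the rsCBE samples within each deposit form. In the samples deposited as 1 library its share was 1.73% and 1.63% in WT replicates 1 and 2, against 1.17% and 1.08% in rsCBE replicates 1 and 2. In those deposited as 2 parts it was 0.731%, 1.19% and 0.917% in WT replicates 3 to 5, against 0.602%, 0.457% and 0.695% in rsCBE replicates 3 to 5. Each rsCBE sample thus lay below each WT sample of the same deposit form, while over all 10 samples the genotypes overlapped. Of 98 V segments tested, 3.06% lay lower in rsCBE in this way, and 7.14% lay higher.

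Its mean share was 1.24% ± 0.434 over the 5 WT samples and 0.80% ± 0.309 over the 5 rsCBE samples (SD). The log2 fold change of rsCBE over WT was -0.63 (SE 0.32), and it did not pass edgeR's quasi-likelihood test with Benjamini-Hochberg adjustment (adjusted p = 0.834; unadjusted p = 0.0681). Of the 98 V segments 0% were called in that test (7 had an unadjusted p under 0.05; DESeq2, run on all 114, called 0 and had 8). With the deposit form as a term the log2 fold change was -0.61 (SE 0.18, edgeR adjusted p = 0.0721), still above the threshold, and 2.04% of the segments were called, neither of them a member. With the replicate number as a block it was also -0.61 (edgeR adjusted p = 0.142), and 1 of the 98 segments was called.

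Igkv10-96 showed no such order. Its share was 0.641%, 0.481%, 1.03%, 0.129% and 1.21% in WT replicates 1 to 5, and 0.311%, 0.262%, 0.898%, 0.717% and 0.987% in rsCBE replicates 1 to 5. The rsCBE samples were lower than WT among the samples deposited as 1 library, and the genotypes overlapped among those deposited as 2 parts. The former is an order of 2 against 2 samples, and the share of all V segments with that order was not computed. WT replicate 4 was the lowest of all, with 4 counts of 3109. The log2 fold change was -0.18 (SE 0.50, edgeR quasi-likelihood test, Benjamini-Hochberg adjusted p = 0.992). Among the 1-library samples alone it was -0.97 (edgeR adjusted p = 0.0730, 0% of 97 segments called), among the 2-part samples 0.02, and it was -0.41 without WT replicate 4.

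**Figure D1:**
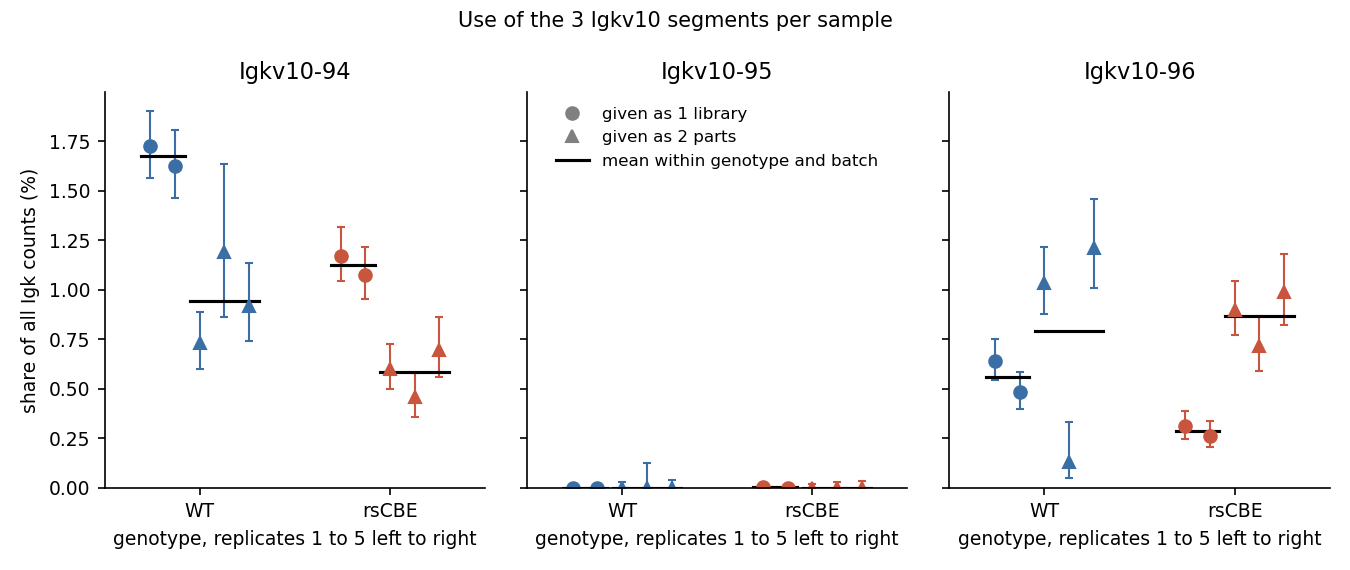
Share of all Igk counts (vertical axis, %) of Igkv10-94, Igkv10-95 and Igkv10-96 in each sample, replicates 1 to 5 from left to right within each genotype; bars are 95% Wilson intervals of the single sample, and black lines are means within genotype and deposit form. Igkv10-94 lies from 0.457% to 1.73% with rsCBE below WT in each deposit form, Igkv10-96 lies from 0.129% to 1.21% and is higher in most 2-part samples, and Igkv10-95 is at 0 in 9 samples.

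The order of the 2 used members turned over between the deposit forms. Igkv10-94 had from 2.69 to 4.11 counts for each count of Igkv10-96 in the 4 samples deposited as 1 library. In the samples deposited as 2 parts it had from 0.637 to 0.757, except WT replicate 4, in which it had 9.25 (37 counts against 4). In 2-part samples relative to 1-library samples, Igkv10-94 was lower (log2 fold change -0.91, edgeR adjusted p = 0.000448) and Igkv10-96 was higher (log2 fold change 1.09, edgeR adjusted p = 0.0106). Such differences were widespread: 30.6% of the 98 V segments were higher in the 2-part samples and 26.5% were lower. What the deposit forms stand for was not tested.

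Summed over the members, the family held 2.37%, 2.11%, 1.77%, 1.32% and 2.13% of the counts in WT replicates 1 to 5, and 1.49%, 1.34%, 1.5%, 1.17% and 1.68% in rsCBE replicates 1 to 5. WT replicate 4 was the 1 WT sample within the rsCBE range.

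After the mean of each deposit form was subtracted, the V segments whose log2 shares ran most like those of Igkv10-94 over the 10 samples were Igkv6-15 (Pearson r = 0.84), Igkv15-103 (0.75) and Igkv1-110 (0.73), of 82 segments compared. Those most like Igkv10-96 were Igkv4-74 (0.92), Igkv4-72 (0.90) and Igkv12-98 (0.87). The shares of Igkv10-94 and Igkv10-96 gave r = -0.29 with each other. All these values share the same libraries, and WT replicate 4, the shallowest sample, is among the points. The lowest count in any sample was 4 for Igkv10-96 (WT replicate 4), 0 for Igkv4-74, 3 for Igkv4-72 and 1 for Igkv12-98. The r values of Igkv10-96, also that with Igkv10-94, may therefore rest largely on near-empty samples. They were not computed without WT replicate 4.

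V segments whose numbers lie up to 10 below or above those of the family, and so surround it on the locus, were taken as its neighbours. Of 17 such segments 16 were tested, and edgeR called 0 higher and 0 lower in rsCBE, with or without the deposit form as a term. Their median log2 fold change was -0.10, against -0.05 over all 98 segments. Igkv19-93, the neighbour towards the J segments, held 4.72% ± 1.14 in WT and 4.03% ± 0.992 in rsCBE (log2 fold change -0.23, edgeR adjusted p = 0.992). On the other side, Igkv12-98 held 0.496% ± 0.294 and 0.582% ± 0.190 (log2 fold change 0.17, edgeR adjusted p = 0.992).

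Both used members were joined to J1 more than the rest of the repertoire was. Within Igkv10-94, J1 took 51.6% of the counts on average, J2 took 21.6%, J4 took 8.97% and J5 took 17.8%. J3 had 0 of its 1752 counts. Within Igkv10-96, J1 took 59.9%, J5 took 11.3% and J3 was in 3 counts, all in rsCBE replicate 3; these means leave out WT replicate 4, whose 4 counts were 3 with J2 and 1 with J5.

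Set against all other V segments of the same sample, the J1 share of Igkv10-94 was 24.1 percentage points higher (51.6% against 27.6%), in 10 of 10 samples. The exact sign-flip permutation test over the 10 samples gave p = 0.00195, the smallest it can give, and p = 0.00321 after Benjamini-Hochberg adjustment over 51 V segments with at least 20 counts in every sample. V segments differ widely in J use, and 39.2% of the 51 had a higher J1 share than their rest by this test. The J5 share of Igkv10-94 was 16.3 points lower than the rest (17.8% against 34.1%), lower in 10 of 10 samples (exact permutation, adjusted p = 0.00474), as it was for 31.4% of the segments. With each clonotype counted once the differences were smaller, 16.4 points for J1 and -9.69 points for J5 (exact permutation, adjusted p = 0.00830 for either).

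Igkv10-96 missed the minimum of 20 counts in WT replicate 4, so it was set against the rest with that sample left out, among 74 segments. Its J1 share was 32.3 points above the rest (59.9% against 27.6%) in 9 of 9 samples, and its J5 share was 22.7 points below (11.3% against 34.0%) in 9 of 9. Adjusted p was 0.00628 for J1 and 0.00741 for J5 in the exact permutation test, and 35.1% of the 74 segments passed in the same direction for either measure. By mean share, Igkv10-96 had the 2nd highest J1 share and the lowest J5 share of the 74 segments, and Igkv10-94 the 7th highest and the 69th. In the plot of J1 against J5 share the members lie at the end of the range where J1 is high and J5 low.

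**Figure D2:**
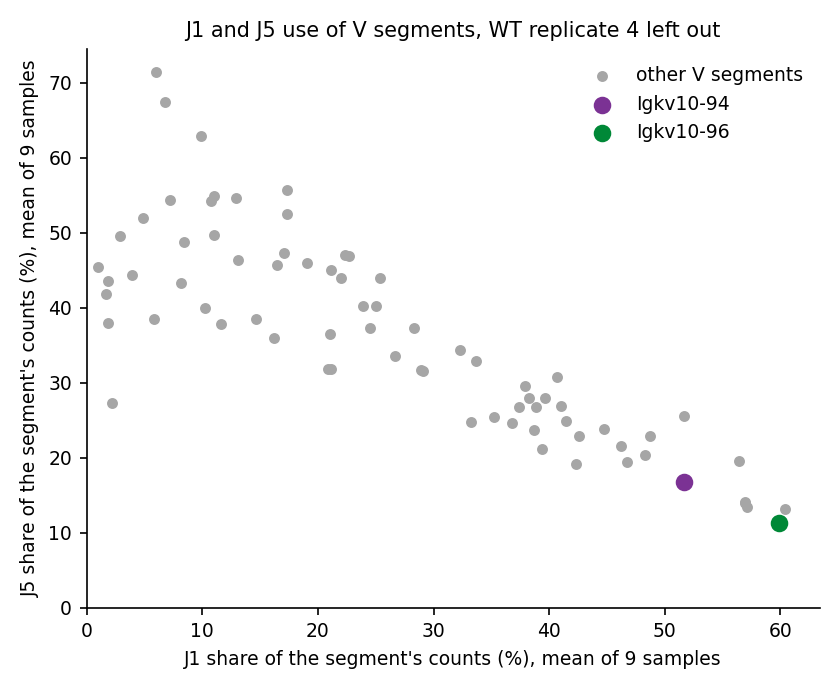
Each point is 1 of 74 V segments with at least 20 counts in each of 9 samples (WT replicate 4 left out); the horizontal axis is the share of its counts joined to J1 and the vertical axis the share joined to J5, both as means of 9 samples in %. Igkv10-94 lies at 51.7% J1 and 16.8% J5, and Igkv10-96 at 59.9% J1 and 11.3% J5, among the segments with the lowest J5 share.

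Within a sample, Igkv10-94 and Igkv10-96 did not differ beyond the spread between samples in J1 share (-2.28 points for Igkv10-94 minus Igkv10-96, SD of the difference 21.8, n = 10, exact sign-flip permutation p = 0.771) or in J5 share (5.10 points, SD 9.20, n = 10, exact permutation p = 0.113, adjusted over 4 measures 0.227). Without WT replicate 4 the J1 difference was -8.24 points (exact permutation p = 0.0664).

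By genotype, the J1 share of Igkv10-94 was lower in each rsCBE sample than in each WT sample. J1 took 60.1%, 54.9%, 77.2%, 51.4% and 52.4% of its counts in WT replicates 1 to 5. In rsCBE replicates 1 to 5 it took 49.6%, 47.4%, 41.8%, 32.3% and 49.4%. The genotypes did not overlap, though the lowest WT sample and the highest rsCBE sample were only 51.4% and 49.6%. Of the 51 segments tested, 11.8% lay lower in rsCBE without overlap and 0% lay higher. The means were 59.2% and 44.1%, a difference of -15.1 points (exact permutation p = 0.00794, which 5 against 5 samples cannot go below). After Benjamini-Hochberg adjustment over the 51 segments p was 0.0675, and 0% of the segments were called. With each clonotype counted once the difference was -8.81 points (exact permutation p = 0.389).

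J1 use was lower in rsCBE across the repertoire, 30.9% in WT and 24.2% in rsCBE over all V segments other than Igkv10-94. Relative to that rest, the difference of Igkv10-94 was -8.38 points (exact permutation p = 0.198, adjusted 0.827), so a lower J1 share particular to Igkv10-94 was not shown. It was -4.52 points without WT replicate 3 and -5.02 without rsCBE replicate 4.

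J5 use of Igkv10-94 was 10.9%, 10.6%, 0.99%, 27% and 17.9% in WT replicates 1 to 5 and 19.5%, 19.9%, 26.4%, 26.2% and 18.5% in rsCBE replicates 1 to 5. WT replicate 3 (1 of 101 counts) was the lowest, and WT replicate 4 (10 of 37 counts) was the highest of all 10 samples, above each rsCBE sample. The other 4 WT samples lay below each rsCBE sample. The means were 13.5% and 22.1%, a difference of 8.60 points (exact permutation p = 0.0873, adjusted 0.159, 0% of 51 segments called). Without WT replicate 4 the difference was 12.0 points (exact permutation, adjusted p = 0.0345), and 37.8% of 74 segments were then called higher in rsCBE. Without WT replicate 3 it was 5.48 points (exact permutation p = 0.198). Relative to the rest of the repertoire the J5 difference was -1.89 points (exact permutation p = 0.659), -4.93 without WT replicate 3 and -0.0403 without WT replicate 4.

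Igkv10-96 gave J1 shares of 56.8%, 66.0%, 72.7% and 61.3% in WT replicates 1, 2, 3 and 5 and of 64.0%, 41.0%, 61.0%, 60.8% and 55.7% in rsCBE replicates 1 to 5. The genotypes overlapped (64.2% against 56.5%, exact permutation p = 0.206, adjusted 0.382, 0% of 74 segments called). Its J5 shares were 6.85%, 8.74%, 8.39% and 3.60% in the same WT samples and 8%, 24.6%, 7.32%, 11.8% and 22.6% in rsCBE, with rsCBE replicates 2 and 5 high (6.90% against 14.9%, exact permutation p = 0.127, adjusted 0.181). Relative to the rest its J1 difference was -0.0620 points (exact permutation p = 1) and its J5 difference -4.09 points (exact permutation p = 0.389).

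**Figure D3:**
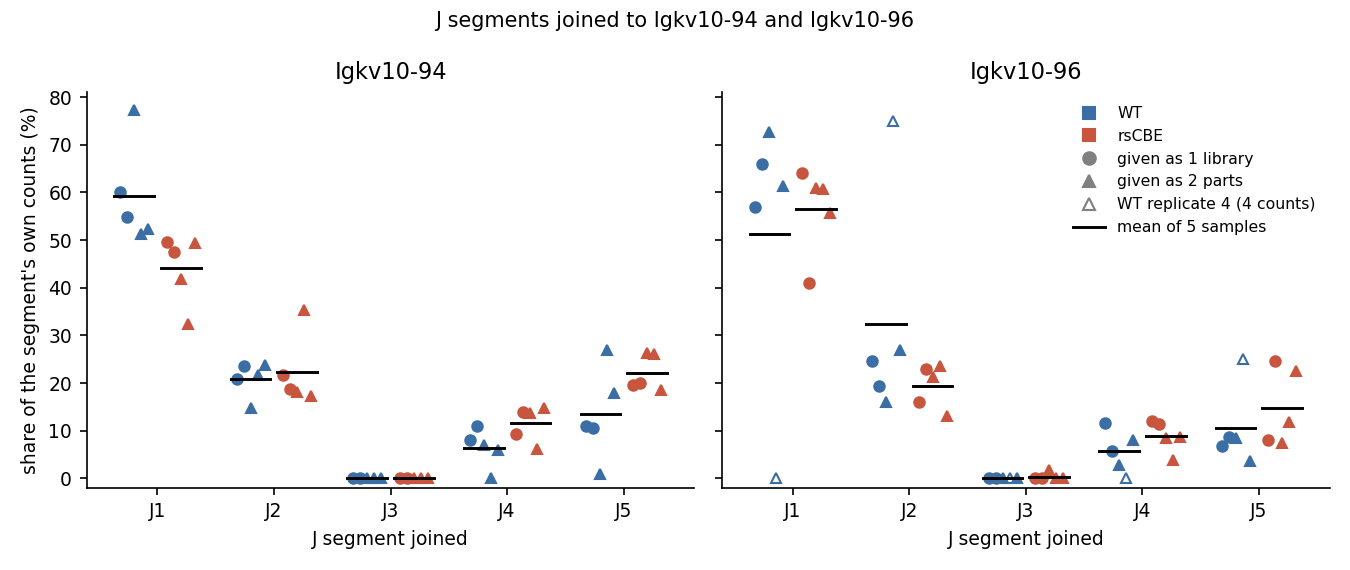
Share of a segment's own counts (vertical axis, %) joined to each J segment, by sample, for Igkv10-94 (left) and Igkv10-96 (right); circles are samples deposited as 1 library, triangles those deposited as 2 parts, lines the mean of 5 samples, and the open triangle is WT replicate 4 of Igkv10-96 (4 counts). The lowest J1 share of Igkv10-94 is 51.4% among the WT samples, above the highest of the rsCBE samples, 49.6%. For Igkv10-96 the WT lines include the 4 counts of WT replicate 4, so the WT J1 line (51.4%) lies below the rsCBE line (56.5%). Without that sample the WT mean is 64.2%.

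Counted as a share of the whole repertoire, Igkv10-94 had negative fold changes in rsCBE for its joints to J1 and J2. Joints of Igkv10-94 to J1 had 236, 191, 78, 19 and 44 counts in WT replicates 1 to 5 and 140, 119, 46, 21 and 40 in rsCBE replicates 1 to 5. Their log2 fold change was -0.97 (SE 0.37) without passing edgeR's test over 270 V-J pairs (adjusted p = 0.459, 0% called; 25 pairs had an unadjusted p under 0.05, and DESeq2 called 2 of 472). The log2 fold change was -0.65 for J2, 0.01 for J4 and 0.09 for J5, none of them called; the last 2 change sign under other settings.

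With the deposit form as a term, the pair of Igkv10-94 and J1 fell by 1.0 on the log2 scale (SE 0.26) and passed edgeR's quasi-likelihood test (Benjamini-Hochberg adjusted p = 0.0456). That test called 2.59% of the 270 pairs, 0.741% of them lower in rsCBE. Among the 1-library samples alone the log2 fold change was -0.82 (edgeR adjusted p = 0.0327), and the pair of Igkv10-96 and J1 was called too (-1.15, edgeR adjusted p = 0.0453), where 4.56% of 285 pairs were lower. Among the 2-part samples alone the 2 pairs gave -1.15 (edgeR adjusted p = 0.588) and -0.08. With the replicate number as a block the pair of Igkv10-94 and J1 was not called (edgeR adjusted p = 0.0983).

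A count was taken as in frame where the CDR3 length was a multiple of 3 and the CDR3 held no stop. Igkv10-94 was in frame in 81.7%, 81.9%, 81.2%, 91.9% and 66.7% of its counts in WT replicates 1 to 5, and in 78.0%, 72.1%, 78.2%, 70.8% and 74.1% in rsCBE replicates 1 to 5. Its mean over 10 samples was 77.6%, against 67.9% for all other V segments, 9.79 points higher in 9 of 10 samples (exact sign-flip permutation p = 0.00391, adjusted 0.0142). Of the 51 segments 21.6% were called higher. WT replicate 5 was the sample in which it lay below the rest. With each clonotype counted once the difference was 6.78 points and was not called (exact permutation, adjusted p = 0.0697).

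By genotype, the in-frame share of Igkv10-94 was 80.7% in WT and 74.6% in rsCBE (exact permutation p = 0.238, adjusted 0.486). That difference of -6.03 points was -9.53 without WT replicate 5 (exact permutation, adjusted p = 0.253) and -3.23 without WT replicate 4. Relative to the rest the difference was -0.711 points, 3.43 without WT replicate 4. Igkv10-96 was in frame in 69.0% of its counts over 9 samples, against 68.2% for the rest (exact permutation p = 0.738), and in 71.8% in WT and 66.7% in rsCBE (exact permutation p = 0.341). In WT replicate 4 none of its 4 counts was in frame.

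Igkv10-94 was in frame more often than Igkv10-96 in 8 of 10 samples, by 15.6 points on average (SD 28.4). This did not pass after adjustment over 4 measures (exact sign-flip permutation p = 0.0352, adjusted 0.141). Without WT replicate 4, in which Igkv10-96 had 4 counts, the difference was 7.10 points (exact permutation p = 0.0703, adjusted 0.141). It was 18.5 points without WT replicate 5 (exact permutation, adjusted p = 0.0312), a value that includes those 4 counts.

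**Figure D4:**
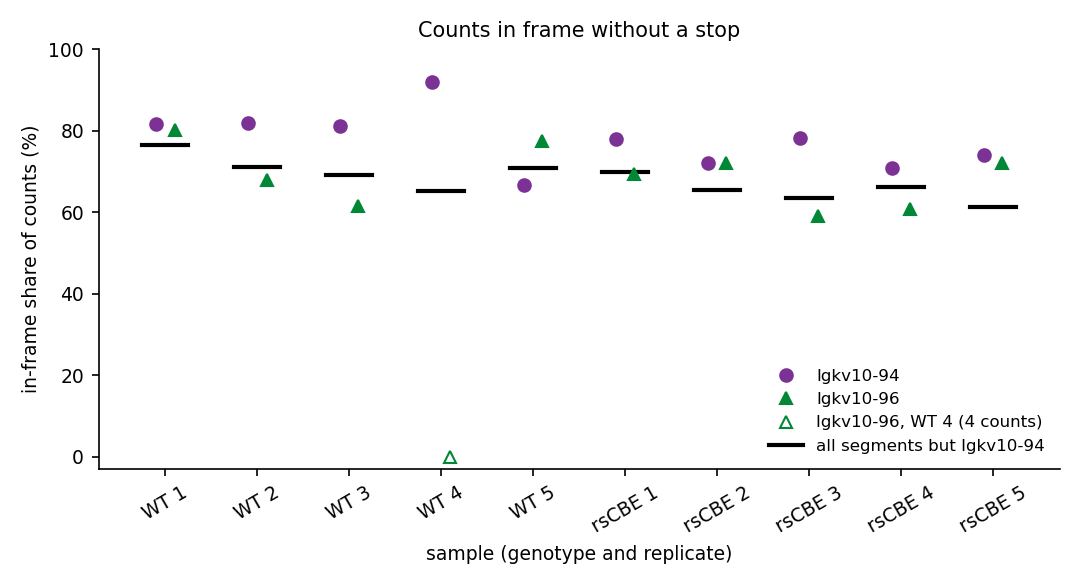
In-frame share of counts (vertical axis, %) of Igkv10-94 (circles) and Igkv10-96 (triangles, open for the 4 counts of WT replicate 4) in each sample, with the value of all V segments but Igkv10-94 as a line. Igkv10-94 lies above the line in 9 of 10 samples, with WT replicate 5 the exception at 66.7%.

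Mean in-frame CDR3 length was 26.8 nucleotides for Igkv10-94 and 26.7 for Igkv10-96 (WT replicate 4 left out), and neither differed from the rest beyond the spread between samples (0.101 nucleotides, exact permutation p = 0.398, and -0.00134, exact permutation p = 0.984). By this measure 56.9% of 51 segments were longer than their rest. By genotype the length of Igkv10-94 was 26.9 in WT and 26.7 in rsCBE, within the spread between samples (a difference of -0.136, exact permutation p = 0.563). With each clonotype counted once the difference was -0.630 nucleotides (exact permutation p = 0.0873). A single length, 27 nucleotides, held 64.6% of the Igkv10-94 counts and 52.4% of the Igkv10-96 counts of the 10 samples added together, and 24 nucleotides held 8.90% and 11.0%.

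A few CDR3 sequences carried much of each member's counts. The 3 commonest in-frame ones of each member are shown with the commonest out-of-frame ones, ranked by mean share over the samples, each as its most frequent nucleotide form and J call. Lower case marks bases that match the germline V end, and capitals mark the bases after it, from J or added at the joint.
QQYSKLPWT, Igkv10-94 with J1: cagcagtatagtaagcttccGTGGACG
QQYSKLPYT, Igkv10-94 with J2: cagcagtatagtaagcttccGTACACG
QQYSKLPRT, Igkv10-94 with J1: cagcagtatagtaagcttcctcGGACG
QQYSKLPH, Igkv10-94 with J5, out of frame: cagcagtatagtaagcttcctcACG
QQGNTLPWT, Igkv10-96 with J1: caacagggtaatacgcttccGTGGACG
QQGNTLPYT, Igkv10-96 with J2: caacagggtaatacgcttccGTACACG
QQGNTLPRT, Igkv10-96 with J1: caacagggtaatacgcttcctcGGACG
QQGNTLPVHVH, Igkv10-96 with J2, out of frame: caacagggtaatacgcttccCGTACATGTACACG
QQGNTLPGR, Igkv10-96 with J1, out of frame: caacagggtaatacgcttcctGGACG

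The commonest joint was the same in both members: the V segment lost its last 3 bases and met J1 whole. In Igkv10-94 it encodes QQYSKLPWT, which held 15.9% ± 7.45 of the counts (SD, n = 10), 15.8% in WT and 15.9% in rsCBE. Its share was 22.4%, 20.1%, 24.8%, 0% and 11.9% in WT replicates 1 to 5 and 22.0%, 16.3%, 17.3%, 15.4% and 8.64% in rsCBE replicates 1 to 5. The near-equal means depend on WT replicate 4 (0 of 37 counts). The other WT samples ran from 11.9% to 24.8%, against 8.64% to 22.0% in rsCBE. In Igkv10-96 the matching QQGNTLPWT held 19.0% ± 9.32, with 0 counts in WT replicate 4 and 13.1% to 30.6% in the other 9 samples.

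The V end trimmed in the same place and joined to J2 came next, with QQYSKLPYT at 13.9% ± 6.19 of Igkv10-94 and QQGNTLPYT at 8.74% ± 5.04 of Igkv10-96. QQYSKLPYT was in all 10 samples, from 3.64% in rsCBE replicate 3 to 27.7% in rsCBE replicate 4. That last sample is also the one in which J2 took 35.4% of the Igkv10-94 counts, against 17.3% to 21.6% in the other rsCBE samples.

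The third form, with 1 V base lost and the first bases of J1 trimmed, was QQYSKLPRT at 11.7% ± 8.34 and QQGNTLPRT at 8.32% ± 6.11. QQYSKLPRT took 16.8%, 11.2%, 8.91%, 32.4% and 8.33% of the Igkv10-94 counts in WT replicates 1 to 5, and 7.80%, 3.98%, 15.5%, 6.15% and 6.17% in rsCBE replicates 1 to 5. The means were 15.5% in WT and 7.91% in rsCBE, and rsCBE replicate 3 lay within the WT range; the difference was not tested. WT replicate 4, the highest of all and a large part of the WT mean, rests on 12 of 37 counts. The other WT samples lay from 8.33% to 16.8%, against 3.98% to 15.5% in rsCBE.

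Out of frame, QQYSKLPH held 3.02% ± 2.74 of Igkv10-94. Its share was 1.53%, 0.862%, 0.99%, 5.41% and 0% in WT replicates 1 to 5 and 1.77%, 3.98%, 2.73%, 9.23% and 3.70% in rsCBE replicates 1 to 5. The means were 1.76% in WT and 4.28% in rsCBE, the genotypes overlapped, and the difference was not tested. WT replicate 4 rests on 2 of 37 counts, and the WT mean was 0.845% without it. Its 39 counts share 1 nucleotide sequence, with J5 called for 27, J4 for 11 and J2 for 1. By counts alone QQYSKLPGR, with J1, was above it (47 counts), as seen after the ranking. For Igkv10-96 the highest mean belonged to the 34-base QQGNTLPVHVH, which rests on 3 of the 4 counts of WT replicate 4 and 1 count of rsCBE replicate 4. The next was QQGNTLPGR at 3.86% ± 2.60, added to the list after its values were seen.

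Joints built of germline V and J bases alone made up 84.4% of the Igkv10-94 counts and 82.8% of the Igkv10-96 counts, all samples added together, with shared bases credited to V. With each clonotype counted once in each sample they made up 56.7% and 59.7%. For Igkv10-94 the means of samples by clonotypes were 52.7% ± 8.73 in WT and 66.2% ± 7.39 in rsCBE, and by counts 83.7% and 85.9%. By either measure the genotypes overlapped, and the differences were not tested. Where at least 15 V bases matched, the V end had lost 3 bases in 52.3% of the Igkv10-94 counts and 45.6% of the Igkv10-96 counts. It had lost 1 base in 16.7% and 15.7%, and was whole in 9.39% and 13.5%. A match shorter than 15 bases was found in 5.82% and 6.05% of the counts.

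The whole V end of Igkv10-94 was in 5.9%, 8.6%, 7.9%, 0% and 1.2% of the counts in WT replicates 1 to 5 and in 9.2%, 12.4%, 15.5%, 4.6% and 19.8% in rsCBE replicates 1 to 5. The genotypes overlapped (4.72% ± 3.92 in WT and 12.3% ± 5.79 in rsCBE), and the difference was not tested. For Igkv10-96 the means were 11.6% ± 3.58 in WT without replicate 4 and 13.1% ± 3.68 in rsCBE.

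**Figure D5:**
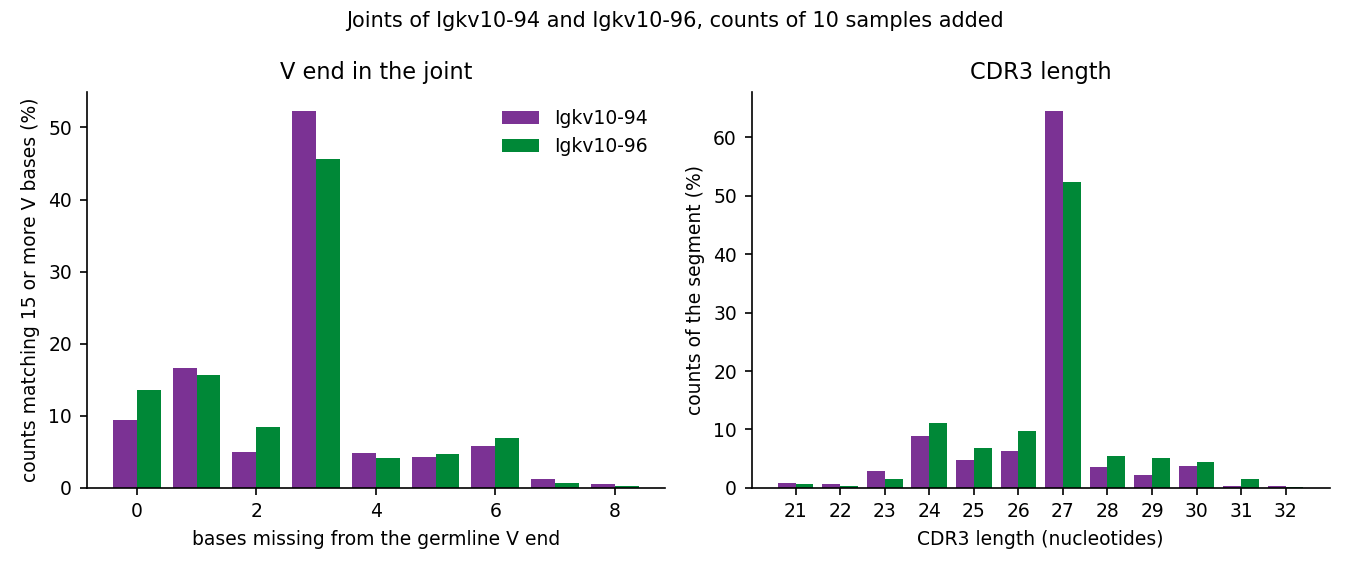
Left, counts by the number of bases missing from the germline V end (vertical axis, % of counts that match 15 or more V bases); right, counts by CDR3 length in nucleotides (vertical axis, % of the segment's counts, lengths 21 to 32), both with the counts of 10 samples added. In both members the highest bars are at 3 missing bases (52.3% and 45.6%) and at 27 nucleotides (64.6% and 52.4%).

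When each joint with at least 15 matching V bases was described by the J segment, the V bases lost and the bases that follow, Igkv10-94 had 177 distinct joints and Igkv10-96 had 113. They had 67 in common, 37.9% of the joints of Igkv10-94 and 59.3% of those of Igkv10-96. The shared joints held 88.1% of the 1650 Igkv10-94 counts and 92.6% of the 962 Igkv10-96 counts so described, which are 82.9% and 87.0% of all their counts. The 10 commonest joints of each member were the same 10.

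The members' clonotypes were a mix of shared and rare ones. Of 274 distinct Igkv10-94 clonotypes 2 were in all 10 samples, 7 were in at least 8 samples and held 58.3% of the counts, and 197 (71.9%) were in 1 sample. Of 175 Igkv10-96 clonotypes 6 were in at least 8 samples and held 49.9% of the counts, and 132 (75.4%) were in 1 sample; WT replicate 4 had only 4 counts of it. The largest clonotype of Igkv10-94 in a sample held from 12.3% to 32.4% of its counts.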

How the data were processed

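Igk amplicon libraries of 10 mouse samples (16 libraries) were deposited as 1 table. Per the file headers its lines pair V calls, a J call and a CDR3 with a count, and the authors deposited whole-number counts with no normalization. mm10 is named in the submitters' processing notes; the V and J caller, its germline set, read filters and what a count stands for (read pairs or molecules) are not given in the sources used here, so intervals cover counting error only. Of 49079 lines, 49 duplicates were merged, and the V calls of both reads differed on 0 lines.

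Samples were grouped by the genotype label. The members, gene lists and tests were chosen with earlier results of these data known. V segment and V-J pair counts were compared over the whole table with edgeR 4.0.16 (quasi-likelihood F-test, library size the total count, normalization factors of 1, filterByExpr) in R 4.3.3, with Benjamini-Hochberg adjustment and a threshold of 0.05; DESeq2 1.42.0 was an alternative. On simulated data with 20 changed V segments of 100 that passed the filter, edgeR recovered 20 with 2 false calls. With 37 changed V-J pairs of 287 that passed the filter it recovered 37 with 3 false calls, and changed pairs that the filter removed are not counted. The planted changes were 2 on the log2 scale in either direction, larger than those given here for the members. The simulation held no difference between deposit forms, so it does not measure the power for smaller changes in these data. Shares within a segment were compared by exact two-sided permutation tests (5 against 5 samples) and exact sign-flip tests (within a sample) in Python 3.11.15 with scipy 1.17.1, over V segments with at least 20 counts in every sample. Differences of a segment minus its rest by genotype, and the test of the deposit form itself, were added after seeing the data.

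By the rule for named genes, all 3 members, the neighbours up to 10 numbers away as a list with values for the nearest, the 3 segments most alike in log2(share + 0.01%) among those with a mean share of at least 0.2%, and per member the 3 commonest in-frame CDR3 and the commonest out-of-frame CDR3 were given. Samples with the same replicate number deviated together (r from 0.17 to 0.813 for 5 pairs over 83 V segments), so the numbers were taken to pair the samples. Different numbers of the same deposit form deviated together as much (r = 0.857 for WT replicate 2 with rsCBE replicate 1), only 2 of 5 WT samples correlated best with their own number, and the labels give no reason for the pairing. Other alternatives were TMM factors, no filter, each clonotype counted once, clonotypes of 1 count left out, a minimum of 50 counts, deposit forms alone and each sample left out. Germline sequences came from GENCODE vM21 transcripts; the members' promoters, recombination signals and protein sequences were not used here.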

Additional observations from a re-analysis of the deposited data

Results flagged for a closer look

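In rsCBE replicate 4 the J2 share of Igkv10-94 was 35.4%, far above the other rsCBE samples (17.3% to 21.6%), on 65 counts. The other samples that stood apart were all WT replicate 4 of Igkv10-96, which had 4 counts: its J1 share was 0% (the other WT samples 56.8% to 72.7%), its J2 share 75.0% (16.1% to 27%), its J5 share 25% (3.60% to 8.74%), its in-frame share 0% (61.5% to 80.1%), and its share of joints made of germline bases alone 25% (79.5% to 88.1%). In all, 6 of 32 groups of samples held such a value, where chance gives about 1 in 20, or 1.6; 5 of the 6 share the same 4 counts.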

How the results depend on the processing

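Depth limits Igkv10-95 (1 count) and Igkv10-96 in WT replicate 4 (4 counts); exact tests over the 5 samples of a genotype, or over the 5 pairs of the replicate block, cannot pass the threshold. The lower use of Igkv10-94 kept its direction in every setting run (log2 fold change -0.81 to -0.47 with 1 sample left out, -0.41 with each clonotype counted once), as did its J1 share (-17.0 to -10.6 points with 1 sample left out, -8.81 with each clonotype counted once). V segments called numbered 1 with the replicate number as a block and 2 with the deposit form as a term; V-J pairs called numbered 2 with DESeq2, 7 with the deposit form as a term and 35 in the 1-library samples alone; in edgeR the replicate block changed no call of a member. Segments with a J5 share called different by genotype numbered 9 without clonotypes of 1 count, 4 at a minimum of 50 counts, and 0 to 28 with 1 sample left out (10 without WT replicate 3, 28 without WT replicate 4, 10 without WT replicate 5). Against the rest, 0 segments were called for J1, J5, in-frame share or CDR3 length in WT or rsCBE alone; with 1 sample left out the numbers were 42 to 59 for J1, 29 to 55 for J5, 16 to 32 for in-frame share and 33 to 54 for CDR3 length, the highest without WT replicate 4, when more segments (74) were tested. Igkv10-94 minus Igkv10-96 in J1 share was 7.81 points in WT alone (-3.08 without WT replicate 4), -12.4 in rsCBE alone and -8.24 to 0.632 with 1 sample left out; in in-frame share it was 7.10 to 18.5; in CDR3 length it was -0.227 with each clonotype counted once and -0.0227 in rsCBE alone. Direction also changed for Igkv10-96 use (0.0168 in 2-part samples, -0.408 to 0.0936 with 1 sample left out), Igkv10-94 with J4 (-0.0206 with DESeq2, -0.30 in 1-library samples, -0.216 to 0.416), Igkv10-94 with J5 (-0.0763 in 2-part samples, -0.244 to 0.35), Igkv10-94 length by genotype (-0.280 to 0.0144, and -0.630 with each clonotype counted once) and against the rest (-0.107 with each clonotype counted once), and the in-frame share of Igkv10-94 minus the rest by genotype (-4.26 to 3.43). Its J1 share minus the rest by genotype was -10.7 to -4.52 with 1 sample left out, and its J5 share -4.93 to -0.0403. The cause was not tested.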
